A study of Mus musculus with 6 samples.

Results

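Oxt, Avp, Nefl, Nefm, Gfap, Mbp and Ugt8a were followed as transcripts that the posterior lobe of the pituitary is known to hold in its axons and glia or that mark myelin. They were taken as every probe set whose platform annotation names exactly 1 of these 7 genes, dim probe sets included, which gave 7 of the 12393 genes named on the array and 16 of its 22690 probe sets. Mbp has 8 of them, Gfap and Ugt8a 2 each, and the other genes 1 each. Whole pituitaries were taken from C57BL/6J males, 8 to 12 weeks old, which lived under 12 h of light and 12 h of darkness and were killed at zeitgeber time 12, when the lights go off. The tested arrays are 3 labelled Bmal1-/- (replicates 4 to 6), a genotype without the gene of the clock transcription factor BMAL1 by its label, and they are set against 3 wild-type arrays (replicates 1 to 3). Both genotypes are of the same strain, sex and age range, and each array carries the RNA of 3 pooled glands. The construction of the Bmal1 allele is not described in the labels. Values are MAS5 intensities on a linear scale, with n = 3 for each genotype, and this small number of arrays limits the precision.

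The posterior lobe is a downward extension of the hypothalamus. Axons of magnocellular neurons end there and release oxytocin and vasopressin into the blood, and their cell bodies stay in the brain, so a gland normally holds only the RNA that travels in the axons or is made by other cells. Neurofilaments are the intermediate filaments of axons, pituicytes are the astrocyte-like glia around the endings, and myelin is the lipid-rich sheath that oligodendrocytes or Schwann cells wrap around axons. BMAL1 drives daily transcription with CLOCK through E-box elements in DNA.

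The arrays resembled each other: Pearson's r across tested probe sets was 0.980 to 0.986 for pairs of the same genotype and 0.970 to 0.976 for the other pairs. Arntl, the gene that encodes BMAL1, read 112.1, 102 and 127.5 on the arrays labelled Bmal1-/-, against 39.6, 51.7 and 38.6 in wild type (log2 fold change 1.13, SE 0.14, limma adjusted p = 0.000653). No source used here says whether its probe set lies inside the deleted stretch, so this reading checks nothing about the labels. All directions are those of arrays labelled Bmal1-/- relative to wild-type arrays.

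Of the 16 probe sets, 6 were bright enough on average to be among the 60% of probe sets tested, and 10 were not. Of those 6, Ugt8a fell, both tested Mbp probe sets rose, and Oxt, Nefm and Nefl did not pass the test at an adjusted p of 0.05. Over the whole array 5.54% of tested probe sets were called, 2.78% as lower and 2.75% as higher. All 3 Bmal1-/- arrays lay below all wild-type arrays at 3 of the 6 and above them at 2. Over the whole array 25.9% of tested probe sets had such groups without overlap, 13.3% downward and 12.6% upward. With so few probe sets, of which 2 belong to Mbp, these shares describe these genes and no wider group. Among the 10 dim probe sets every intensity lay between 0.1 and 31, and 9 of the 10 log2 differences were below 0. The share of all dim probe sets below 0 was not computed. The median over all probe sets except controls was 31.7 to 32.2 on the arrays labelled Bmal1-/- and 33.5 to 34.3 in wild type. The 9 of 10 is therefore not read as a trait of these genes. At 1 of the 10 the Bmal1-/- arrays all lay below wild type and at none above, where 9.07% and 3.78% of all probe sets outside the test did so. None of the 10 was called in the limma fit with no filter on low values, which called 1.46% of all probe sets (smallest adjusted p = 0.437). At an unadjusted p under 0.05 there were 0 of 10, against 8.75% of all probe sets outside the test.

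**Figure D1:**
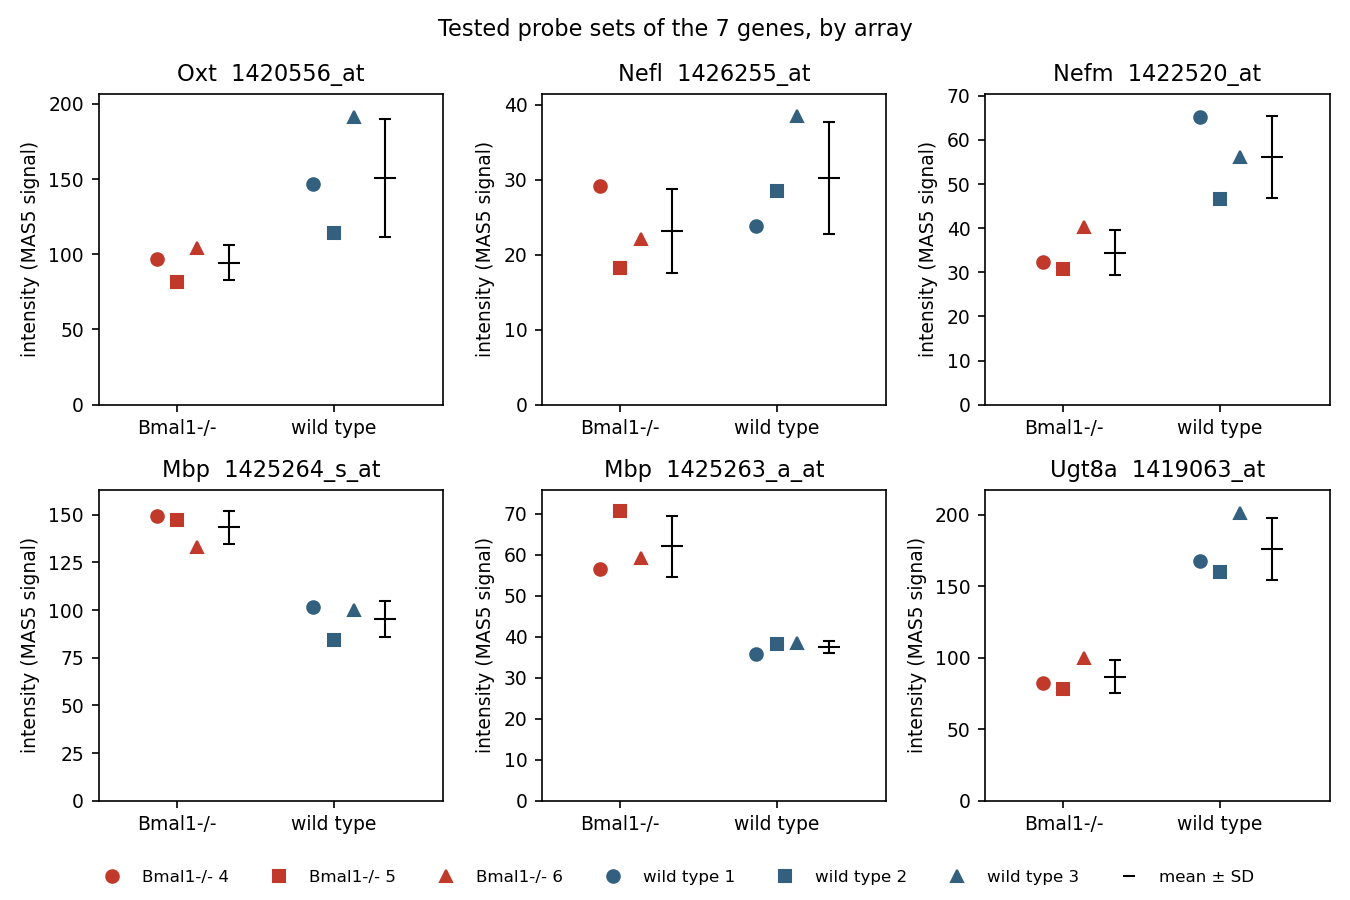
Intensity (MAS5 signal, linear axis from 0) of the 6 tested probe sets on each array, Bmal1-/- left and wild type right, with mean and SD (n = 3). All 3 Bmal1-/- arrays lie below all wild-type arrays for Oxt, Nefm and Ugt8a and above them for both Mbp probe sets, while Nefl overlaps.

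Oxytocin is encoded by Oxt, which also yields its carrier protein neurophysin. Its probe set (1420556_at) read 96.9, 81.8 and 104.3 on the arrays labelled Bmal1-/-, against 146.4, 113.8 and 191.5 in wild type. The highest Bmal1-/- array lay under the lowest wild-type array, and the wild-type arrays were the more spread out (94.3 ± 11.5 in Bmal1-/- and 151 ± 39.0 in wild type, mean ± SD). On the log2(intensity + 16) scale used for all fold changes here the difference was -0.57 (SE 0.16, 95% interval -0.92 to -0.23), with a limma adjusted p of 0.0565, so it did not pass. The call depended on single arrays. Without wild-type replicate 2, the lowest of its genotype, the log2 fold change was -0.74 (adjusted p = 0.0135). Without wild-type replicate 3, the highest, it was -0.40 (adjusted p = 0.190). With estimated array weights it also passed (-0.61, adjusted p = 0.0397), and it was called in the fit that averages the probe sets of each gene. Oxt has 1 probe set, so its values are the same in that fit. In whole glands, fewer cells or axons of a type and less RNA in each cannot be told apart.

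Avp encodes the precursor of vasopressin and lies next to Oxt on chromosome 2. Its probe set (1450794_at) was dim, with 4.2, 4.0 and 5.3 on the arrays labelled Bmal1-/-, against 6.2, 3.4 and 18.4 in wild type. The genotypes overlapped, and wild-type replicate 3 alone stood above the rest. In the fit with no filter the log2 fold change was -0.26 (SE 0.20, 95% interval -0.72 to 0.20, adjusted p = 0.598). At so low a signal this scale compresses ratios, so the interval cannot be set against the value for Oxt. The 250 bases upstream of both genes are shown because this neighbouring pair is the hormone output of the lobe and Avp is known as an E-box gene in the brain's clock. In RefSeq (GRCm38.p6) the windows are chr2:130575919-130576168 on the plus strand for Oxt and chr2:130582589-130582838 on the minus strand for Avp. Capitals mark matches to the E-box CACGTG, its variant CACGTT, the nuclear receptor element AGGTCA and the D-box TTATGTAA, searched on both strands.
Oxt: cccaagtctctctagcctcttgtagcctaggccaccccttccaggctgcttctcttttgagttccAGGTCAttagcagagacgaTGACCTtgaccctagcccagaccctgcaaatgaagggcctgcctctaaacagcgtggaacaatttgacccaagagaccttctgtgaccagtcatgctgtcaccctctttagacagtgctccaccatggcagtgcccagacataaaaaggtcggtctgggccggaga
Avp: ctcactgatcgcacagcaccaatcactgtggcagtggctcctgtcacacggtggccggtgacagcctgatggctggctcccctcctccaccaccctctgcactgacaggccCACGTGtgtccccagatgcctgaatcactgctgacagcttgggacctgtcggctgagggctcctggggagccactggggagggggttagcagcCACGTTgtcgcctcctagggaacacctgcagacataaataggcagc
The Avp window holds CACGTG 139 bases and CACGTT 46 bases before the start of the gene, and the Oxt window holds AGGTCA 185 bases before it and, on the other strand, 166 bases before it. None of these matches overlap. Of 32851 mouse promoter windows of the same length, 6.02% hold CACGTG, 3.85% CACGTT, 14.0% AGGTCA and 0.819% TTATGTAA, and 1.36% hold AGGTCA at least 2 times. A match is a string of letters and not a measured binding site.

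The neurofilament genes Nefl and Nefm, which encode the light and medium subunits, are neighbours on chromosome 14. Nefm (1422520_at) read 32.4, 30.7 and 40.3 on the arrays labelled Bmal1-/-, against 65.3, 46.7 and 56.2 in wild type. Every Bmal1-/- array lay under every wild-type array (34.5 ± 5.12 in Bmal1-/- and 56.1 ± 9.30 in wild type). The log2 fold change of -0.51 (SE 0.15, 95% interval -0.84 to -0.18) missed the threshold in limma (adjusted p = 0.0684). It was called in the fit that averages the probe sets of each gene, although Nefm has 1 probe set and its values are the same there. It also passed without wild-type replicate 2 (-0.61, adjusted p = 0.045), and it missed the threshold without any of the other 5 arrays, with an adjusted p of up to 0.209. Nefl (1426255_at) read 29.2, 18.2 and 22.1 on the arrays labelled Bmal1-/-, against 23.9, 28.5 and 38.5 in wild type. These ranges overlap, and the log2 fold change of -0.24 (SE 0.17, 95% interval -0.62 to 0.14) did not pass (adjusted p = 0.471).

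Gfap encodes the intermediate filament of astrocytes, which pituicytes can also express. Its brighter probe set (1426508_at) read 11.2, 11.2 and 5.7 on the arrays labelled Bmal1-/-, against 25.5, 8.2 and 20.0 in wild type, with overlap through wild-type replicate 2. The other (1426509_s_at) read 0.9, 0.9 and 6.2, against 8.6, 4.0 and 5.2. Both were too dim to be tested, and with no filter their log2 fold changes were -0.39 (SE 0.22, adjusted p = 0.437) and -0.24 (SE 0.15, adjusted p = 0.503). Their mean levels over all arrays stood at percentiles 35.4 and 17.4 of all probe sets except controls, so Gfap was dim.

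Ugt8a, the enzyme that makes galactosylceramide, the main glycolipid of myelin, was the only 1 of the 7 genes called lower. Its bright probe set (1419063_at) read 82.3, 78.4 and 99.7 on the arrays labelled Bmal1-/-, against 167.7, 159.6 and 201.0 in wild type. The ranges are far apart, and the mean of 86.8 ± 11.3 in Bmal1-/- was 0.49 of the wild-type mean of 176 ± 21.9. The log2 fold change was -0.90 (SE 0.12, 95% interval -1.17 to -0.63, limma adjusted p = 0.00163). It passed in all 15 alternatives run for it, leaving out each array included (highest adjusted p = 0.0125). The second probe set (1419064_a_at) was dim and gave no such separation, with 8.6, 8.7 and 20.5 on the arrays labelled Bmal1-/-, against 12.8, 31.0 and 8.4 in wild type (no filter, log2 fold change -0.19, SE 0.26, adjusted p = 0.786). Its 95% interval of -0.78 to 0.40 leaves out the estimate of the bright probe set, although values near the bottom of the range understate a change on this scale. The upstream window of Ugt8a is shown because it is the member that fell. It lies at chr3:125938653-125938902 on the minus strand (RefSeq, GRCm38.p6), and it holds none of the 4 strings searched, so it has no capitals.
Ugt8a: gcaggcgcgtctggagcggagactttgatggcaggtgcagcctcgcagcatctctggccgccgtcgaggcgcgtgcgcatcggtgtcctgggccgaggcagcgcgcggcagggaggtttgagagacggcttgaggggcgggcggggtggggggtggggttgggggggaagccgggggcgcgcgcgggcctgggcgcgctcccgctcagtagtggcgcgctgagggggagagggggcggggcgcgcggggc
Of its bases 76.8% are G or C, against 54.0% in the Oxt window and 62.4% in the Avp window. No match says only that these letters are not in this window.

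Mbp is known in the mouse as a gene of several transcripts, some for the myelin basic proteins that compact the sheath and others, called golli, that are also made in neurons and immune cells. Both of its bright probe sets rose. The brightest (1425264_s_at) read 149.3, 147.4 and 133.3 on the arrays labelled Bmal1-/-, against 101.5, 84.4 and 99.9 in wild type, and rose by a log2 fold change of 0.52 (SE 0.11, 95% interval 0.27 to 0.77, limma adjusted p = 0.021). The next (1425263_a_at) read 56.4, 70.5 and 59.2, against 35.7, 38.3 and 38.4, and rose by 0.54 (SE 0.13, 95% interval 0.25 to 0.83, adjusted p = 0.0376). Neither pair of ranges overlaps. The other 6 Mbp probe sets read between 0.1 and 19.6 on every array, and none was called with no filter. Their log2 differences there were 0.03 (1433532_a_at), -0.20 (1419646_a_at), -0.19 (1451961_a_at), -0.17 (1456228_x_at), -0.39 (1436201_x_at) and -0.04 (1454651_x_at). At such levels a rise like that of the bright probe sets would be small on this scale, so overlapping values cannot decide whether the probe sets agree. Only 1 of the 6 (1456228_x_at) had genotypes that did not overlap, and it lay the opposite way to the bright probe sets. It read 3.6, 6.7 and 6.0 on the arrays labelled Bmal1-/-, against 7.5, 7.6 and 8.9 in wild type. The 95% interval of its log2 difference, -0.46 to 0.13, includes 0. The annotation does not pair probe sets with transcripts, so the rise is that of the 2 bright probe sets and not of Mbp transcripts as a whole. The call of the brightest was lost without wild-type replicate 3 (adjusted p = 0.0533) and without Bmal1-/- replicates 4 (0.0742) or 5 (0.0832). That of the next was lost without any 1 of the 6 arrays (0.0521 to 0.152) and with no filter on low values (0.0928).

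**Figure D2:**
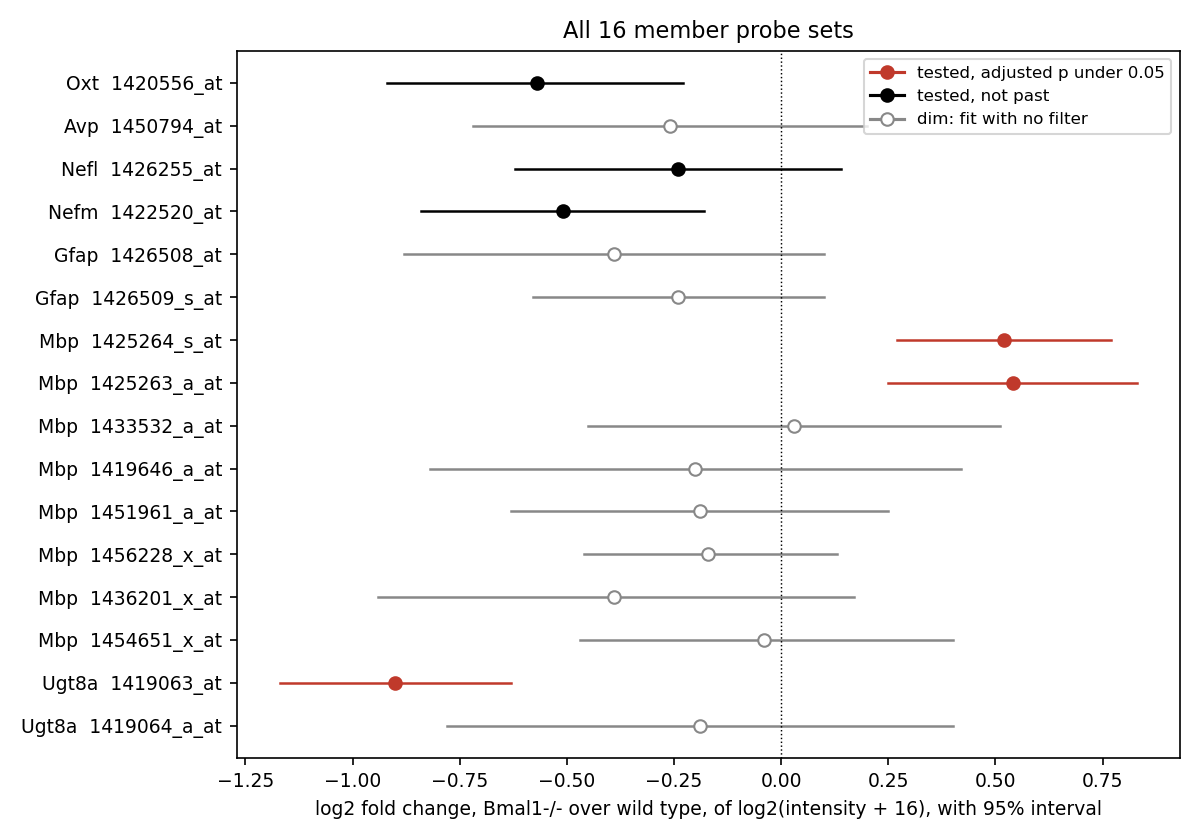
Log2 fold change of Bmal1-/- over wild type, on the log2(intensity + 16) scale, with its 95% interval, for all 16 probe sets of the 7 genes. Filled points were tested (red where the adjusted p was under 0.05) and open points are dim probe sets in the fit with no filter. The bright Mbp and Ugt8a probe sets lie on opposite sides of 0.

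The called changes of Mbp and Ugt8a had opposite signs. Within each array the log2 level of the brightest Mbp probe set was set against that of Ugt8a, and this difference averaged 0.64 ± 0.23 on the arrays labelled Bmal1-/- and -0.79 ± 0.13 in wild type (SD), a shift of 1.42. Against Oxt, the same Mbp probe set shifted by 1.09, with 0.53 ± 0.21 in Bmal1-/- and -0.56 ± 0.25 in wild type. Oxt set against Ugt8a shifted by 0.33, with 0.10 ± 0.08 in Bmal1-/- and -0.23 ± 0.19 in wild type. For each of these 3 shifts the two-sided exact permutation test gave p = 0.1, which is as small as 3 against 3 can give. After Benjamini-Hochberg adjustment over the 4 differences computed, p was 0.13. The Mbp probe set was already higher without overlap in Bmal1-/-, and Ugt8a and Oxt were lower without overlap. For the Mbp differences this p was therefore fixed in advance and adds no support. Nefm set against Oxt gave -1.13 ± 0.08 in Bmal1-/- and -1.19 ± 0.29 in wild type (exact permutation p = 1). With 3 arrays a genotype this test cannot reach 0.05, and the differences say nothing about which probe set holds more RNA.

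Defining markers of the lobe and of central myelin were mostly at the bottom of the range. Rax, a homeobox gene of pituicytes, read 1.3 to 3.3 on the arrays labelled Bmal1-/- and 0.9 to 10.1 in wild type. S100b, a calcium-binding protein of glia and folliculostellate cells, read 0.4 to 7 in Bmal1-/- and 11.1 to 13.8 in wild type (no filter, limma adjusted p = 0.175). The myelin proteins Mog, Mag and Mobp read 0.5 to 9.3 in Bmal1-/- and 0.3 to 13.6 in wild type. Gap43, a growth cone protein, was dim too, at 12.4 to 28 in Bmal1-/- and 12.9 to 17.2 in wild type. Aqp4, the water channel of astrocytes, had 39.1 ± 8.45 in Bmal1-/- and 30.5 ± 4.2 in wild type and did not pass (adjusted p = 0.436). Cnp, a phosphodiesterase of myelin, had 177 ± 15.7 in Bmal1-/- and 143 ± 13.9 in wild type and did not pass (adjusted p = 0.162). The name posterior lobe and myelin genes describes where the 7 genes are known from, and these markers do not show the glia of the lobe or myelinating cells clearly. In the wider lists below, 15 of 25 pituicyte and astrocyte genes and 9 of 24 oligodendrocyte genes were bright enough to be tested.

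**Figure D3:**
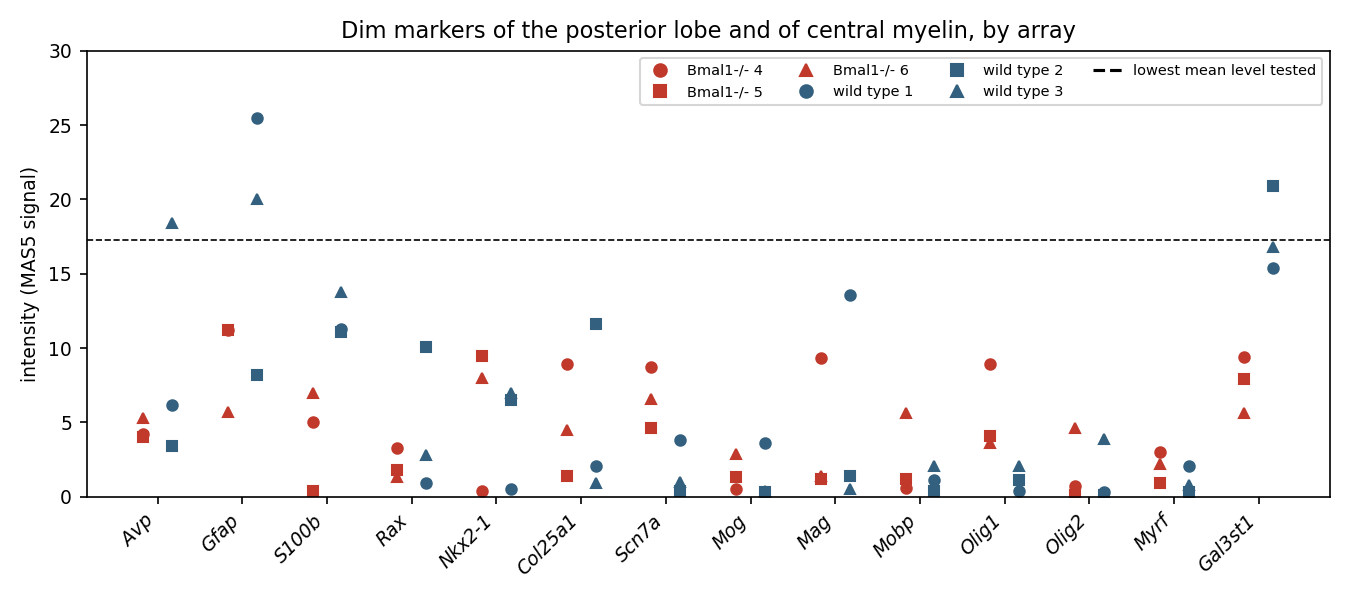
Intensity (MAS5 signal, linear axis) on each array of 14 dim genes known from magnocellular axons, pituicytes or oligodendrocytes, Bmal1-/- left and wild type right of each tick. Most values lie under 17.3, the lowest mean level that was tested (dashed line), and Rax, Mog, Mobp, Olig1, Olig2 and Myrf never exceed 10.1. Fabp7, a dim gene of the pituicyte list that reached 52.2 in Bmal1-/-, is not shown.

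Among wider lists of hypothalamic neurons, axons, pituicytes and oligodendrocytes, the called genes outside the 7 were Mapt, Stmn3 and Gal. Of all tested genes 3% were called higher and 2.66% lower, with 1 probe set per gene. Of 22 listed axon cytoskeleton genes 14 were tested, 2 rose, none fell and 12 did not pass, with a median log2 fold change of 0.12 where all 8033 tested genes have a median of 0.00. Mapt, the microtubule-binding protein tau, read 165.9, 144.2 and 143.1 on the arrays labelled Bmal1-/-, against 84.9, 99.3 and 98.1 in wild type. It rose by 0.60 (SE 0.11, limma adjusted p = 0.00996). Stmn3, a stathmin that regulates tubulin, rose by 0.32 (SE 0.06, adjusted p = 0.0166), a call lost without the intensity trend and on leaving out Bmal1-/- replicate 4, Bmal1-/- replicate 5 or wild-type replicate 3. Nefh, the heavy neurofilament subunit, had 118 ± 16.1 in Bmal1-/- and 87.1 ± 14.6 in wild type (log2 fold change 0.38, adjusted p = 0.136), which is the other side of 0 from Nefl and Nefm. Endocrine cells of the gland are known to express several genes of this list, so it does not stand for posterior lobe axons alone.

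Of 22 hypothalamic neuron genes 7 were tested, and Gal alone was called. Gal, the neuropeptide galanin, which lactotrophs also make, read 27.2, 28.4 and 24.8 on the arrays labelled Bmal1-/-, against 54.3, 64.9 and 78.7 in wild type. It fell by 0.93 on the log2 scale (SE 0.15, limma adjusted p = 0.00414). Penk, the enkephalin precursor, had 126 ± 33.7 in Bmal1-/- and 75.3 ± 17.5 in wild type and did not pass (adjusted p = 0.0576). None of the 15 tested pituicyte and astrocyte genes passed, where 5.66% of all tested genes did in either direction. Of the 15, 10 were below 0 with a median of -0.15, where 50.1% of all tested genes were below 0. The smallest p-values there were at Nes, an intermediate filament of progenitor cells (26.7 ± 20.4 in Bmal1-/- and 63.8 ± 5.05 in wild type, log2 fold change -1.03, adjusted p = 0.0579), and at the lipid carrier Apoe (-0.25, adjusted p = 0.104). Nes passed without Bmal1-/- replicate 4 (adjusted p = 0.0141), with a pseudocount of 64 and with all tested probe sets of a gene averaged.

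Of 24 oligodendrocyte genes 9 were tested, and Mbp and Ugt8a were the ones called. The other 7 had a median of -0.13 with 5 below 0, where 50.1% of all tested genes were below 0. Sox10, the transcription factor of oligodendrocytes and Schwann cells, read 14.3, 13.7 and 8.3 on the arrays labelled Bmal1-/-, against 42.1, 17.1 and 32.4 in wild type, without overlap (log2 fold change -0.70, SE 0.21, adjusted p = 0.0739). Sox10 passed without wild-type replicate 2 (-0.92, adjusted p = 0.0157). Every Bmal1-/- value lay under 17.3, the lowest mean level tested, so this probe set entered the test through its wild-type arrays. These p-values are therefore no support for a fall. Sox10 has 3 probe sets, and only the brightest tested is given. None of 3 tested Schwann cell genes passed, with Pmp22, a peripheral myelin protein, at 0.44 (adjusted p = 0.0855) and Egr2, its transcription factor, at -0.40 (adjusted p = 0.273).

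**Figure D4:**
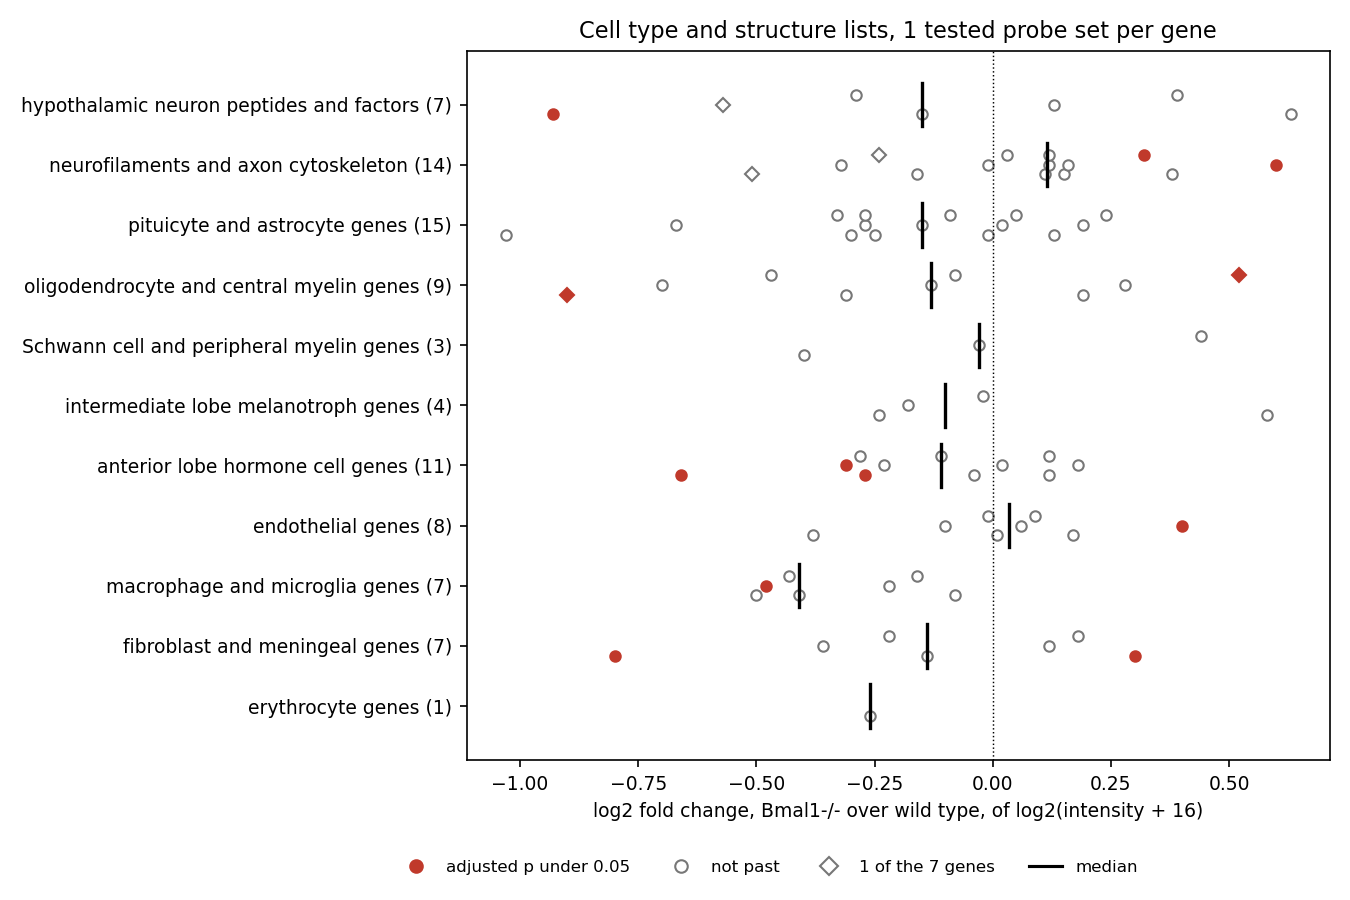
Log2 fold change of Bmal1-/- over wild type, on the log2(intensity + 16) scale, of each tested gene in 11 lists, with 1 probe set per gene and the number tested in brackets. Black bars are medians, filled red symbols passed the threshold and diamonds are Oxt, Nefl, Nefm, Mbp and Ugt8a. Macrophage genes are all below 0, and the other lists lie on both sides of 0 or hold 1 gene.

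Markers of other cells of the gland also differed between the genotypes, and their part in the values above was not tested. All 7 tested macrophage and microglia genes were below 0 (median -0.41), where 50.1% of all tested genes were. C1qa, a complement subunit, fell by 0.48 (SE 0.11, limma adjusted p = 0.028). That call was lost with no filter (0.0556) and on leaving out any 1 of the 6 arrays (0.0504 to 0.0891). The summed intensity of those 7 genes was 393.6 to 480.9 in Bmal1-/- and 563.3 to 623.3 in wild type. For the 4 tested melanotroph genes of the intermediate lobe, which is dissected with the posterior lobe, the sum was 9036.5 to 10145.5 in Bmal1-/- and 10162.6 to 11917.6 in wild type. Most of it is Pomc, the melanocortin and corticotropin precursor (log2 fold change -0.24, limma adjusted p = 0.0731), and none of these genes passed. Pomc was at -0.04 (limma adjusted p = 0.651) after quantile normalization, which gives each rank the same value on every array. For probe sets at the top of the range this setting takes out most of a difference. It therefore says little about the gap between the sums. Neurod1, a transcription factor, was at 0.58 (adjusted p = 0.089), and Pax7, the melanotroph selector, was dim, at 4 to 14.4 in Bmal1-/- and 0.8 to 16.3 in wild type. Of 11 anterior lobe genes the hormone genes Gh (-0.27, adjusted p = 0.0217) and Cga (-0.31, adjusted p = 0.019) and the receptor gene Ghrhr (-0.66, adjusted p = 0.00553) fell and none rose, and Prl did not pass (-0.11, adjusted p = 0.336, list sum 47184.5 to 49555 in Bmal1-/- and 52129 to 59727.9 in wild type). After quantile normalization Gh was at -0.00 and Cga at -0.04, but both lie at the top of the range, where this setting forces values near 0. Both calls were lost with no filter (0.125 for Gh and 0.0918 for Cga) and without the intensity trend (0.169 for Gh and 0.139 for Cga). Gh was lost on leaving out Bmal1-/- replicate 5 or 6 or wild-type replicate 1 or 3 (up to 0.0978), and Cga on leaving out Bmal1-/- replicate 4 or 6 or wild-type replicate 3 (up to 0.0824). Ghrhr passed in all 16 alternatives. Dcn, the matrix proteoglycan decorin, fell by 0.80 (SE 0.09, adjusted p = 0.000312), and of the other fibroblast genes Col1a2, a collagen chain, rose by 0.30 (adjusted p = 0.0399). Col1a2 passed in 7 of 16 alternatives, on leaving out an array only when that was wild-type replicate 2, and was at 0.11 (adjusted p = 0.388) with its probe sets averaged. The endothelial gene Plvap rose by 0.40 (adjusted p = 0.0287), a call lost with no filter (0.0579), without the trend (0.0844) and on leaving out Bmal1-/- replicate 4 or 5 or wild-type replicate 1 or 3 (up to 0.103). The erythrocyte list had 1 tested gene, Alas2, which did not pass (-0.26, adjusted p = 0.487). Actb control probe sets, which report on RNA integrity, had 3'/5' ratios of 0.65 to 0.89 in Bmal1-/- and 0.74 to 0.91 in wild type on the log2 scale, and those of Gapdh were -0.79 to -0.62 in Bmal1-/- and -0.67 to -0.52 in wild type.

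The order of the arrays within a genotype was counted over the 6 tested probe sets. The share over all tested probe sets was not computed, so the counts describe these probe sets only. The 2 tested Mbp probe sets differed in their highest array in both genotypes. Wild-type replicate 3 was the highest of its genotype for 4 of the 6 tested probe sets and the lowest for none, and wild-type replicate 2 was the lowest for 4 and the highest for none. Among the arrays labelled Bmal1-/-, replicate 5 was the lowest for 4 of the 6 and replicate 6 the highest for 3. Likeness to Oxt was measured as the root mean square difference between log2 levels over the 6 arrays, each probe set centred on its own mean, and by the rule used here genes with a genotype difference of similar size come first. The 5 closest genes were Entpd5 (0.024), Prdx4 (0.067), Tmem71 (0.075), Eva1c (0.088) and Vegfc (0.089). Entpd5 (13.5 in Bmal1-/- and 27.5 in wild type) and Tmem71 (13.2 and 25.4) are dim beside Oxt (94.3 and 151). Their Bmal1-/- arrays lie under or near 17.3, so they were tested through their wild-type arrays. The log2(intensity + 16) scale understates the change of dim genes, so this closeness depends on the pseudocount. The closest of the other members were farther away on this scale, Nefm at 0.176 and Ugt8a at 0.204. Closest to the brightest Mbp probe set were B4galnt1 (0.050), Fam181b (0.055), Ing2 (0.059), Dach2 (0.070) and Lpl (0.073), with the second Mbp probe set at 0.121. With 13576 probe sets and 6 arrays, some such matches arise between unrelated genes.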

How the data were processed

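Biotin-labelled cRNA from 1 ug of total RNA per pool was hybridised to 1 Affymetrix mouse 3' array, per the labels' protocols. The deposited values are 1 linear intensity per probe set and array. They come from MAS5, per the submitters' processing notes, with version, scaling target and detection calls unstated. MAS5 subtracts a mismatch background, so low values are noisy, and the 2% trimmed mean was 100 on all 6 arrays.

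Values were taken as log2(intensity + 16), which understates the change of dim genes. After removal of 64 array controls, the test covered the brightest 60% by mean log2 value (13576 probe sets, lowest mean level 17.3) with limma 3.58.1 in R 4.3.3 (lmFit, eBayes with intensity trend, two-sided), Benjamini-Hochberg adjusted over all of them at a threshold of 0.05. Dim members have a test only in the fit with no filter. Lists use the brightest tested probe set naming 1 gene, and are described by counts and medians with no set test. The fit was checked on simulated normal noise with planted changes larger than those of the 7 genes. That check says nothing about changes of the sizes reported for them. The platform annotation names 1 gene for 20393 probe sets, several for 691 and none for 1606. Upstream sequences are the first 250 bases of RefSeq promoter windows, found for 4 of the 7 genes.

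The members and lists were chosen with earlier results of these data known. The text names every member probe set, up to 6 called genes of each list or the 2 with the smallest p, fixed defining markers, and the 5 genes most like Oxt and Mbp. Nefh, Penk, Sox10, Fabp7 and the dim genes under Other observations were named after their values were seen. Pools are separate animals, so p-values measure the spread between pools of 3 glands. The labels give no batch. The alternatives tried were no filter and the top 40% as filters, pseudocounts of 64 and 1, equal array medians and quantile normalization as scalings, no trend, robust eBayes and array weights as fits, omission of each array, the average of all tested probe sets of a gene, and omission of _x_at and _s_at probe sets.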

Additional observations from a re-analysis of the deposited data

How the results depend on the processing

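No paired analysis was possible because the 2 genotypes share no replicate number (4 to 6 in Bmal1-/-, 1 to 3 in wild type). The count of changed probe sets, 752, was 407 without the intensity trend and 330 with no filter, and 312 to 939 when 1 array was left out. The count of called member probe sets, 3, was 1 to 4 when 1 array was left out. Leaving out 1 array gave log2 fold changes of -0.74 to -0.40 for Oxt, -0.61 to -0.42 for Nefm, 0.45 to 0.57 for Mbp 1425264_s_at and 0.47 to 0.59 for Mbp 1425263_a_at, with no change of sign. Oxt passed with array weights (-0.61), and Mbp 1425263_a_at missed the threshold with no filter (0.54). Called hypothalamic neuron genes, 1, numbered 0 among the top 40% of probe sets (Gal was not tested there), 2 with array weights (Oxt joined), 3 with all probe sets averaged (Oxt and Penk joined) and 1 to 2 without 1 array. The median of that list, -0.15, was 0.04 after quantile normalization and -0.01 in the top 40%. The -0.15 is the value of Nnat (6900 in Bmal1-/- and 7650 in wild type). At that level quantile normalization takes out most of a difference. Called axon genes, 2, numbered 1 without the trend, 3 with all probe sets averaged (Nefm joined) and 1 to 3 without 1 array, with a list median of -0.03 to 0.15. Oxt, Penk and Nefm have 1 probe set each, so averaging leaves their values unchanged. Called pituicyte genes, 0, numbered 1 (Nes) with a pseudocount of 64 and with all probe sets averaged, and 0 to 1 without 1 array, with a median of -0.23 to -0.13. Called oligodendrocyte genes, 2, numbered 1 to 3 without 1 array (Sox10 joined without wild-type replicate 2), and the list median was 0.28 in the top 40%. Prl, also at the top of the range, was at 0.04 after quantile normalization, against -0.11. Cnp was at -0.00 with its probe sets averaged, against 0.28. Beyond fewer arrays or fewer probe sets where a setting has them, the causes were not tested. Intensities under about 17.3 limit Avp, Gfap and the 6 dim Mbp probe sets, where only large changes could be called.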

Other observations

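Fabp7, a fatty acid binding protein of radial glia and astrocytes, stood out among the dim genes of the pituicyte list. Its probe set read 32.4, 52.2 and 40.5 on the arrays labelled Bmal1-/-, against 0.3, 5.4 and 0.5 in wild type. Its mean over all arrays left it outside the main test, and with no filter limma gave 1.67 as its log2 fold change (SE 0.19, adjusted p = 0.00339), where 1.46% of all probe sets were called. It was the 1 of 10 dim genes of that list called there. The wild-type level is at the bottom of the measured range, so the size depends on the pseudocount.

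Other dim genes of these lists had genotypes that did not overlap but were not called. Pdyn, the dynorphin precursor made in vasopressin neurons, read 0.8, 6.9 and 2.9 on the arrays labelled Bmal1-/-, against 24.0, 11.8 and 9.5 in wild type. Gal3st1, which adds sulfate to the galactosylceramide that the Ugt8a enzyme makes, read 9.4, 7.9 and 5.6 in Bmal1-/- and 15.4, 20.9 and 16.8 in wild type. Gjb1, a gap junction protein of myelinating cells, read 0.5, 0.6 and 1.8 in Bmal1-/- and 8.2, 3.4 and 7.4 in wild type. Others lay the opposite way. Olig1, a transcription factor of oligodendrocytes, read 8.9, 4.1 and 3.6 in Bmal1-/- and 0.4, 1.1 and 2.1 in wild type, and Scn7a, a sodium channel gene of the pituicyte list, read 8.7, 4.6 and 6.6 in Bmal1-/- and 3.8, 0.4 and 1.0 in wild type. Without overlap, 4 of 12 dim hypothalamic genes were lower and 0 higher, 1 of 7 axon genes lower and 0 higher, 1 of 10 pituicyte genes lower and 2 higher, and 2 of 9 oligodendrocyte genes lower and 1 higher. Among all probe sets outside the test, 9.07% were lower in Bmal1-/- without overlap and 3.78% higher.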
